A study of Mus musculus with 9 samples.

Results

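The genes described here make prostaglandins and leukotrienes or sense them. They are 9 of the 19937 genes measured: the leukotriene receptor genes Cysltr1 and Ltb4r1, the prostanoid receptor genes Ptgdr2, Ptger2, Ptger4 and Ptgir, and the synthesis genes Hpgds, Ptgs2 and Alox5ap. They were chosen by name as genes of eicosanoid synthesis and reception, but with earlier results of these data known. Each was read at 1 probe set that names only that gene. All 9 were found, with 9 probe sets.

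RNA was measured on 9 Affymetrix arrays, 3 for each of 3 groups of mouse CD4 T cells. The naive group is CD4+ CD44- spleen cells, taken at day 29 from mice given a sham treatment. The acute Th2 group is CD4+ CD69+ cells from the lung at day 29, and the chronic Th2 group is cells of the same sort from the lung at day 104. Each of the sorts also used a further surface marker that the labels give. Mice of the Th2 groups were sensitised with 3 injections of 10 µg ovalbumin with 1.5 mg aluminium hydroxide (days 1, 14 and 21), and then inhaled 1% ovalbumin, on 3 consecutive days in the acute group and for 12 weeks in the chronic group. Cells of all groups, naive included, were stimulated for 8 h with anti-CD3 and anti-CD28 between the sort and the extraction of RNA. The sources used here do not state strain, age, what the sham treatment held or whether animals were pooled. The labels call the replicates biological, but p-values measure only the spread between these samples. Each comparison with naive cells sets lung against spleen and ovalbumin against sham treatment as well as Th2 against naive cells. Chronic Th2 cells were taken later than both acute Th2 and naive cells. Tissue, treatment and cell state, and likewise day and stage, thus cannot be told apart. In cell populations of this kind, fewer cells that express a gene and less RNA per cell cannot be told apart either.

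Eicosanoids are lipid mediators made from arachidonic acid, which phospholipases release from membranes. Cyclooxygenases turn it into a common precursor from which separate synthases make the prostaglandins and prostacyclin. 5-lipoxygenase, with its activating protein, makes leukotrienes from it. In allergic airways, mast cells and eosinophils are known sources of cysteinyl leukotrienes and mast cells of prostaglandin D2. Prostaglandin E2, through its receptors EP2 and EP4, and prostacyclin raise cAMP and are known to restrain T cell activation.

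Levels are RMA log2 intensities, a scale on which 1 unit is a 2-fold difference of intensity. Background was read from the 1015 olfactory receptor genes, which have no known role in T cells, and the 95th percentile of their values was 6.68. A gene was called at a limma adjusted p under 0.05, adjusted over all 19937 genes. The identity of the cells was checked first: all 7 measured markers of CD4 T cells lay above 6.68 in at least 1 group mean, and all 6 Th2 markers, Il4, Il5, Il13, Gata3, Ccr4 and Ccr8, rose in each Th2 group against naive cells. Naive replicate 1 stood apart, with Pearson correlations across genes of 0.939 and 0.941 with the other naive arrays, which correlated at 0.991 with each other. Its level of Il2, a cytokine gene induced by stimulation, was 5.07, against 11.33 and 11.27. Chronic Th2 replicates 1 and 2 had the highest background, with olfactory medians of 5.67 and 5.51 against 4.94 to 5.21 on the other 7 arrays. Of 51 measured marker genes of 8 other cell types, 6 lay above 6.68 in any group mean (Cd68, Siglecf, Ccr3, Gata2, Cd79b and Itga2b). The sum of the linear intensities of the 51 ran from 2930.3 to 3146.4 on naive, from 2962.5 to 3172.9 on acute Th2 and from 3223.1 to 3365.2 on chronic Th2 arrays. In the acute Th2 group 1 of the 51 was called higher, and in the chronic Th2 group 2 higher and 1 lower, namely Ccr3 in both, and Gata2 (higher) and Cd79a (lower) in chronic Th2 cells. The Gata2 call was lost in 4 and the Cd79a call in 8 of 9 fits that left out 1 array. Protease genes of mast cells or basophils (Mcpt4, Mcpt8, Cma1), the receptor gene Fcer1a of both cell types and the eosinophil granule gene Epx had means below 6.68 in every group. The part of other cells, of naive replicate 1's state or of the raised background in the results was not tested beyond the values given.

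The genes that rose from naive to Th2 cells were 3 of the 6 receptor genes and, in acute Th2 cells, the cyclooxygenase gene Ptgs2. Hpgds and Alox5ap did not pass the test in the reported fit. In acute Th2 cells 4 of the 9 genes were called, all higher: Cysltr1, Ptger2, Ptgs2 and Ltb4r1. Over all genes 5.87% were called in this comparison, 3.67% higher and 2.2% lower. In chronic Th2 cells 3 of the 9 were called, again all higher (Cysltr1, Ptger2 and Ltb4r1), where 7.88% of all genes were called, 3.68% higher and 4.2% lower. Between chronic and acute Th2 cells limma called 0 of the 9, and 0.0301% of all genes were called, 0.015% higher and 0.015% lower. At an unadjusted p under 0.05 it was 1 of the 9, beside 2962 of all 19937 genes. With array weights 5 of the 9 were called, beside 6721 of all genes. Both comparisons with naive cells share the 3 naive arrays. As the 9 genes were chosen with earlier results of these data known, their counts beside the shares of all genes are no test of the pathway. Without naive replicate 1 the counts were again 4, 3 and 0, while those over all genes were 2424, 3438 and 12. In acute Th2 cells 2 of the 9 were called in a fit of the naive and acute Th2 arrays alone, beside 762 of all genes. There 7 of the 9 were called with array weights (Ptger4, Ptgir and Hpgds besides the 4 named), beside 4019 of all genes. These weighted naive replicate 1 at 0.165 and acute Th2 replicate 3 at 8.23. The median log2 difference of the 9 genes was 0.36 for acute Th2 minus naive (-0.030 over all genes), 0.21 for chronic Th2 minus naive (0.043 over all genes) and -0.11 for chronic minus acute Th2 (0.043 over all genes). With 9 genes each median is the value of 1 gene, namely Hpgds, Ptgdr2 and Ptgir in this order. None of these was called in the reported fit, so that the medians do not show a shift of the 9 genes together. Ptgdr2, Ptgir, Hpgds and Alox5ap had group means below 6.68 in all 3 groups, so that 5 of the 9 genes passed a filter on dim genes, beside 9838 of all 19937 genes.

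**Figure D1:**
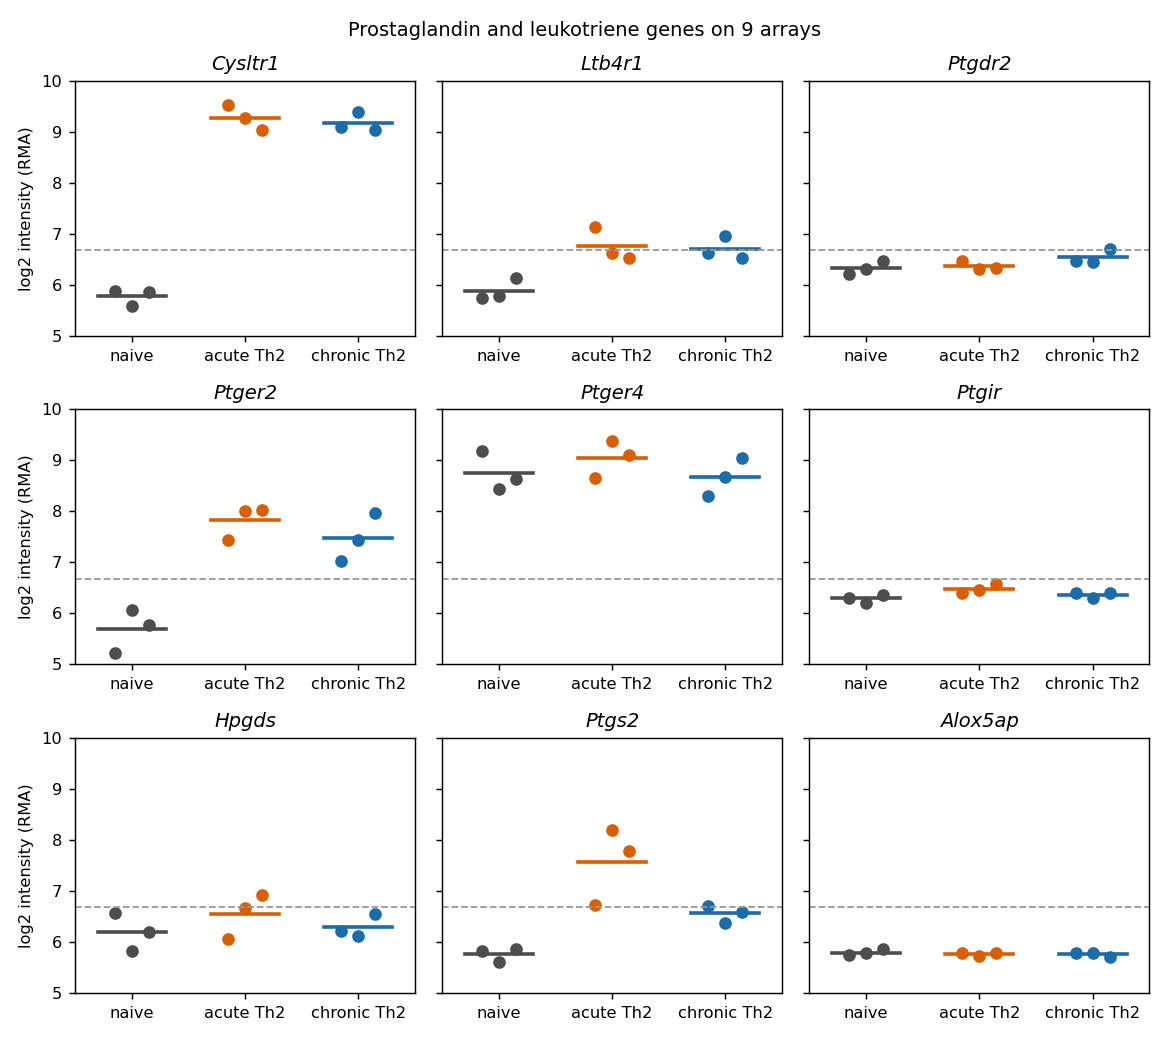
Log2 intensity (y axis) of the 9 genes on each array, with points for arrays (replicates 1 to 3 from left to right), bars for group means and a dashed line at 6.68, the 95th percentile of olfactory receptor genes. Cysltr1 and Ptger2 lie below the line on all naive arrays and above it on all 6 Th2 arrays, Ptger4 lies above it on all 9, and Alox5ap and Ptgir lie below it on all 9.

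The sequences just before the annotated starts of the genes that rose are shown with that of Ptger4, which did not pass, since the latter shares its ligand with Ptger2. RefSeq windows (GRCm38.p6) were found for 7 of the 9 genes, and Cysltr1 and Alox5ap had none. Each run below is the 250 bases before the start, 5′ to 3′ on the gene's strand: chr14:44987861-44988110 (+) for Ptger2, chr14:55765712-55765961 (+) for Ltb4r1, chr1:150099781-150100030 (+) for Ptgs2 and chr15:5244188-5244437 (-) for Ptger4. Capitals mark matches, on either strand, to a GATA motif (searched in the form AGATAA, in the form TGATAA, in the form AGATAG and in the form TGATAG) or to the core that NFAT factors bind (GGAAA).
Ptger2: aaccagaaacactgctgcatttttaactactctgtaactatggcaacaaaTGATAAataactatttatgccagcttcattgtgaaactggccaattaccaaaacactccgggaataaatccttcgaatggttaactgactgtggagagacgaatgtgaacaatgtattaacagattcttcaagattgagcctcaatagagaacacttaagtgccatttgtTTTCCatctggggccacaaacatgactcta
Ltb4r1: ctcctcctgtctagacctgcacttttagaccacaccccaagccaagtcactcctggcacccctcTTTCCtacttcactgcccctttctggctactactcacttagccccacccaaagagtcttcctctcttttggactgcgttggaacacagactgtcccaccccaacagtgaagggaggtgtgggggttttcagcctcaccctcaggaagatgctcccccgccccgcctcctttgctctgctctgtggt
Ptgs2: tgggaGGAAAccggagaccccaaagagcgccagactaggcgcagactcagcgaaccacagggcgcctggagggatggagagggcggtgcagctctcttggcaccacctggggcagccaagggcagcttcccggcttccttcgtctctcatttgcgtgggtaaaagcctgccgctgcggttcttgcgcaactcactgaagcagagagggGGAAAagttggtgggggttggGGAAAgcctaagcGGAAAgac
Ptger4: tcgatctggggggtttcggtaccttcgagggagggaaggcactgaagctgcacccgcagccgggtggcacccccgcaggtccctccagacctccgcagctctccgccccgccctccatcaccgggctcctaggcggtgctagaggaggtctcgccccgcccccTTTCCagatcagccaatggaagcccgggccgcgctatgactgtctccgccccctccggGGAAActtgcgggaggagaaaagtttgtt
A GATA match stood at position -200 of Ptger2, counted from the start, and in none of the other 3 windows, while 26.5% of 32851 such windows of all genes hold one. NFAT core matches numbered 4 in Ptgs2 (at -245, -42, -21 and -8), 2 in Ptger4 (at -87 and -29), 1 in Ptger2 (at -30) and 1 in Ltb4r1 (at -186), and 55.6% of all windows hold at least 1. The AP-1 motif TGACTCA (4.5% of all windows) and the CRE half-site TGACG (17.8%) had no match in these 4 windows. The windows end at the annotated start, and bases past it were not searched, so that a motif there would be missed. Whether transcription begins at these annotated starts in these cells was not tested. None of these motifs contains another. A match is a stretch of letters and was not tested as a binding site.

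Cysltr1 encodes the receptor through which cysteinyl leukotrienes contract airway smooth muscle and act on leukocytes, and it is the target of montelukast. Its levels were 5.89, 5.59 and 5.86 on the naive arrays, 9.52, 9.27 and 9.04 on the acute Th2 arrays and 9.10, 9.39 and 9.05 on the chronic Th2 arrays. All 6 Th2 arrays were far above all naive arrays, and the Th2 groups overlapped. The group means were 5.78 ± 0.17, 9.28 ± 0.24 and 9.18 ± 0.19 (SD, n = 3 each). The log2 difference was 3.50 for acute Th2 minus naive (SE 0.15, adjusted p = 3.17e-06), an 11.3-fold difference of intensity, and 3.40 for chronic Th2 minus naive (SE 0.15, adjusted p = 3.85e-06), 10.5-fold. Without naive replicate 1 the differences were 3.55 and 3.45. Chronic minus acute Th2 was -0.098 (95% interval -0.44 to 0.25, adjusted p = 0.742). As the naive level lay within background, these folds are those of intensity and need not be those of RNA, which holds also for Ptger2, Ltb4r1 and Ptgs2.

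Ltb4r1 encodes the high-affinity receptor of leukotriene B4, a chemoattractant for neutrophils and effector T cells. It was measured at 5.75, 5.78 and 6.13 in naive, at 7.13, 6.63 and 6.52 in acute Th2 and at 6.63, 6.95 and 6.52 in chronic Th2 cells. The Th2 arrays all lay above the naive arrays, but only 2 of the 9 values (acute Th2 replicate 1 and chronic Th2 replicate 2) exceeded 6.68. The difference from naive cells was 0.87 in acute Th2 (SE 0.19, adjusted p = 0.0300) and 0.81 in chronic Th2 cells (SE 0.19, adjusted p = 0.0346). Each call was lost in 4 of 9 fits that left out 1 array. In acute Th2 cells the adjusted p was 0.0768 without acute Th2 replicate 1, 0.0769 without acute Th2 replicate 2, 0.0574 without chronic Th2 replicate 1 and 0.0917 without naive replicate 2. In chronic Th2 cells it was 0.0618 without acute Th2 replicate 2, 0.104 without chronic Th2 replicate 1, 0.119 without chronic Th2 replicate 2 and 0.102 without naive replicate 2. With each array centred on its olfactory receptor genes, the chronic difference was 0.41 (adjusted p = 0.0962) beside a median of -0.37 over all genes, and the acute one was 0.84 (adjusted p = 0.0275) beside -0.061. Chronic minus acute Th2 was -0.060 (95% interval -0.49 to 0.37, adjusted p = 0.877).

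Ptger2 encodes EP2, a receptor of prostaglandin E2 that raises cAMP. Its levels were 5.22, 6.06 and 5.77 on the naive, 7.44, 8.01 and 8.03 on the acute Th2 and 7.02, 7.45 and 7.97 on the chronic Th2 arrays. The Th2 arrays lay above the naive arrays without overlap, and the ranges of the Th2 groups overlapped. Against naive cells the difference was 2.14 in acute Th2 (SE 0.29, adjusted p = 0.00308), 4.40-fold in intensity, and 1.80 in chronic Th2 cells (SE 0.29, adjusted p = 0.00754), 3.47-fold. It was 1.91 and 1.57 without naive replicate 1, the lowest of the naive arrays. The calls held in all 9 fits that left out 1 array, with adjusted p of at most 0.0216 (acute) and 0.0345 (chronic). Chronic minus acute Th2 was -0.34 (95% interval -1.01 to 0.32, adjusted p = 0.545).

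Ptger4 encodes EP4, the other prostaglandin E2 receptor that raises cAMP, and was above background on every array. Its levels were 9.19, 8.43 and 8.64 in naive, 8.66, 9.39 and 9.11 in acute Th2 and 8.31, 8.68 and 9.05 in chronic Th2 cells, and the ranges of all 3 groups overlapped. The log2 difference was 0.30 for acute Th2 minus naive (95% interval -0.30 to 0.91, adjusted p = 0.699) and -0.074 for chronic Th2 minus naive (95% interval -0.68 to 0.53, adjusted p = 0.873). Between the Th2 groups it was -0.38 (95% interval -0.98 to 0.23, adjusted p = 0.478). Naive replicate 1 was the highest naive array, and without it the difference of acute Th2 cells was 0.52 (adjusted p = 0.261) and that of chronic Th2 cells turned to 0.15 (adjusted p = 0.724). It turned to 0.13 also when the arrays were quantile normalised again.

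Ptgir encodes the receptor of prostacyclin, and Ptgdr2 encodes CRTH2, the receptor through which prostaglandin D2 attracts Th2 cells, eosinophils and basophils. Ptgir was measured at 6.31, 6.21 and 6.37 in naive, 6.40, 6.46 and 6.57 in acute Th2 and 6.40, 6.31 and 6.40 in chronic Th2 cells. The acute Th2 arrays lay just above the naive arrays, and every value lay below 6.68. Its difference from naive cells was 0.18 in acute Th2 (95% interval -0.0064 to 0.37, adjusted p = 0.328) and 0.072 in chronic Th2 cells (95% interval -0.12 to 0.26, adjusted p = 0.595), and chronic minus acute Th2 was -0.11 (95% interval -0.30 to 0.078, adjusted p = 0.501). Ptgdr2 was measured at 6.22, 6.31 and 6.46 in naive, 6.48, 6.30 and 6.33 in acute Th2 and 6.46, 6.45 and 6.72 in chronic Th2 cells. All 3 groups overlapped, and only chronic Th2 replicate 3 was above 6.68. Its difference was 0.037 for acute Th2 minus naive (95% interval -0.21 to 0.28, adjusted p = 0.935), 0.21 for chronic Th2 minus naive (95% interval -0.031 to 0.45, adjusted p = 0.245) and 0.17 for chronic minus acute Th2 (95% interval -0.068 to 0.42, adjusted p = 0.428).

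Ptgs2 encodes cyclooxygenase-2, the inducible enzyme of prostaglandin synthesis. Its levels were 5.82, 5.60 and 5.87 on the naive, 6.73, 8.20 and 7.78 on the acute Th2 and 6.71, 6.38 and 6.59 on the chronic Th2 arrays. The 3 groups did not overlap, with naive cells lowest and acute Th2 cells highest, but acute Th2 replicate 1 lay next to chronic Th2 replicate 1. In acute Th2 cells Ptgs2 rose by 1.81 (SE 0.32, adjusted p = 0.0114), 3.49-fold in intensity, and without acute Th2 replicate 3 the adjusted p was 0.0597. In chronic Th2 cells the difference from naive cells was 0.80 (95% interval 0.073 to 1.52, adjusted p = 0.162), and 1 of the 9 fits without an array passed (adjusted p = 0.0202 without acute Th2 replicate 1), as did the fit of the naive and chronic Th2 arrays alone (adjusted p = 0.0269). Chronic minus acute Th2 was -1.01 (SE 0.32, 95% interval -1.73 to -0.28), with an unadjusted p of 0.0120 and an adjusted p of 0.322. The chronic Th2 mean of 6.56 lay within background, so that this is a difference of intensity and no fold of RNA. That difference ranged from -1.43 to -0.69 when 1 array was left out, and its adjusted p was 0.141 with arrays centred on olfactory receptor genes and 0.00492 with array weights.

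Hpgds encodes the hematopoietic prostaglandin D synthase and Alox5ap the activating protein of 5-lipoxygenase. Hpgds was measured at 6.57, 5.82 and 6.19 in naive, 6.06, 6.67 and 6.93 in acute Th2 and 6.21, 6.11 and 6.54 in chronic Th2 cells, with all groups overlapping. Its difference was 0.36 for acute Th2 minus naive (95% interval -0.22 to 0.94, adjusted p = 0.603), 0.094 for chronic Th2 minus naive (95% interval -0.49 to 0.68, adjusted p = 0.831) and -0.26 for chronic minus acute Th2 (95% interval -0.85 to 0.32, adjusted p = 0.593). Alox5ap had the narrowest range of the 9 genes, from 5.71 to 5.86 over all arrays. Its differences from naive cells were -0.034 in acute Th2 (95% interval -0.20 to 0.13, adjusted p = 0.908) and -0.031 in chronic Th2 cells (95% interval -0.20 to 0.13, adjusted p = 0.798), and chronic minus acute Th2 was 0.0025 (95% interval -0.16 to 0.17, adjusted p = 0.988). At this level the arrays cannot tell a low from an absent transcript. Centring on olfactory receptor genes turned the chronic minus naive differences of Ptgdr2, Ptgir and Hpgds to -0.20, -0.34 and -0.31, none of them called. Array weights called Hpgds in acute Th2 minus naive (0.77, limma adjusted p = 0.0126) and in chronic minus acute Th2 (-0.65, adjusted p = 0.0159). Ptgir was called there too, at 0.24 (adjusted p = 0.0400) and -0.21 (adjusted p = 0.0349). The group means of both genes lay within background, and 4019 and 6721 of all genes were called in these fits.

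**Figure D2:**
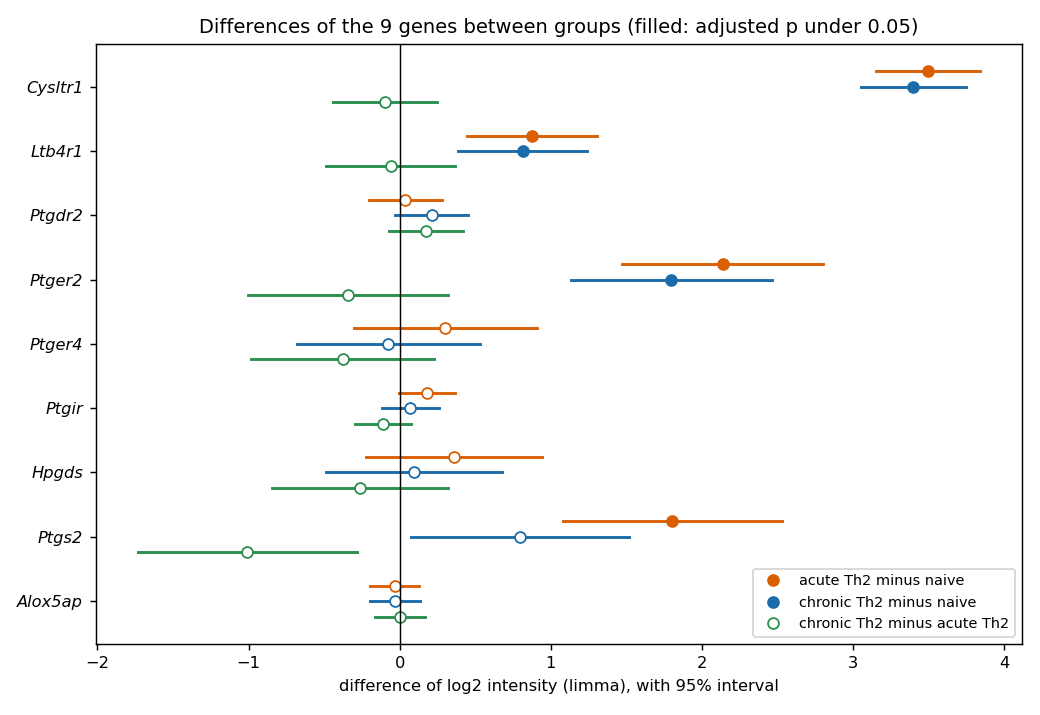
Difference of log2 intensity (x axis) of the 9 genes in the 3 comparisons, with 95% intervals from limma; filled points have an adjusted p under 0.05. Cysltr1 differs most from naive cells (3.50 and 3.40), and the largest difference between the Th2 groups is that of Ptgs2 (-1.01), which did not pass.

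The order of the groups is given for the 5 genes with a group mean above 6.68. For Cysltr1, Ptger2 and Ltb4r1 it was acute Th2, chronic Th2 and naive from high to low, and no difference between the Th2 groups passed the test. Array weights turned the order of the Th2 groups for Cysltr1 and Ltb4r1, and renewed quantile normalisation did so for Cysltr1. Array weights also called Ptger2 lower in chronic than in acute Th2 cells (-0.54, limma adjusted p = 0.0266), where they called 6721 of all 19937 genes. Ltb4r1 exceeded 6.68 on 2 of 9 arrays. For Ptgs2 acute Th2 cells had the highest mean. The means of chronic Th2 and naive cells both lay within background, so that no order of RNA is read between those groups. By intensity all naive arrays lay below all chronic Th2 arrays, a difference that did not pass in the reported fit. For Ptger4 no difference between groups passed in the reported fit. With array weights chronic minus acute Th2 (-0.45, limma adjusted p = 0.0362) and acute Th2 minus naive (0.53, adjusted p = 0.0384) did.

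Other genes of the pathway were read from 5 lists, which hold 51 symbols, 44 of them measured. In acute Th2 cells 4 of the 44 rose (Cysltr2, Abcc1, Alox8 and Abcc4) and 0 fell, with a median log2 difference of -0.031 (-0.030 over all genes). In chronic Th2 cells 3 rose (Cysltr2, Abcc1 and Alox8) and 0 fell, with a median of 0.12 (0.043 over all genes). Over all genes 3.67% were called higher in acute and 3.68% in chronic Th2 cells, and 2.2% and 4.2% lower, shares against which the counts of the single lists are to be read. Between the Th2 groups limma called 0 of 44, against 7 at an unadjusted p under 0.05 and 17 with array weights. Of all 19937 genes, 2962 had an unadjusted p under 0.05 there and 6721 were called with array weights, so these 2 counts do not set the lists apart.

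In the list of other receptors 1 of 9 measured genes rose in each Th2 group and 0 fell. Cysltr2, the other cysteinyl leukotriene receptor gene, had levels of 3.64, 3.36 and 3.49 in naive, 6.82, 7.40 and 7.16 in acute Th2 and 6.56, 6.68 and 6.90 in chronic Th2 cells. Every Th2 array was above every naive array. It rose by 3.63 in acute (SE 0.16, adjusted p = 3.17e-06) and by 3.22 in chronic Th2 cells (SE 0.16, adjusted p = 6.42e-06), and it was called in all 9 fits without 1 array in both comparisons. Its naive level lay under the median of olfactory receptor genes, so that the size again is that of intensity. Chronic minus acute Th2 was -0.41 (unadjusted p = 0.0298, adjusted p = 0.322). The thromboxane receptor gene Tbxa2r was measured at 8.36, 7.51 and 7.41 in naive cells, with group means of 6.87 ± 0.17 in acute and 6.97 ± 0.12 in chronic Th2 cells (SD, n = 3 each). Its differences of -0.89 (adjusted p = 0.0637) and -0.79 (adjusted p = 0.0766) did not pass. Without naive replicate 1 they were -0.59 (adjusted p = 0.0132) and -0.49 (adjusted p = 0.0249), and without naive replicate 3 the acute adjusted p was 0.0439. The remaining prostanoid receptor genes Ptgdr, Ptger1, Ptger3 and Ptgfr had group means between 5.43 and 6.61, below the background percentile.

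In the transport and breakdown list 2 of 8 measured genes rose in acute and 1 in chronic Th2 cells, and 0 fell. Abcc1, which exports leukotriene C4 and glutathione conjugates, had levels of 8.05, 8.93 and 8.76 in naive, 10.08, 10.52 and 10.48 in acute Th2 and 10.04, 10.23 and 10.47 in chronic Th2 cells. It was above background on all arrays, and the Th2 arrays all lay above the naive arrays. The difference was 1.78 in acute (SE 0.23, adjusted p = 0.00252) and 1.67 in chronic Th2 cells (SE 0.23, adjusted p = 0.00352), and 1.52 and 1.40 without naive replicate 1. Abcc4, which exports prostaglandins, rose by 0.59 in acute Th2 cells (adjusted p = 0.0465). It failed in 7 of 9 fits without 1 array, namely those without naive 3 or without any 1 of the Th2 arrays, where the adjusted p reached 0.182. Hpgd, the enzyme that breaks down prostaglandins, stood between 5.15 and 5.59.

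In the lipoxygenase and leukotriene synthesis list 1 of 13 measured genes rose in each Th2 group and 0 fell, where 5.87% and 7.88% of all genes were called. The gene was Alox8, a lipoxygenase that in the mouse oxidises arachidonic acid at carbon 8. Its levels were 6.51, 6.47 and 6.40 in naive, 7.58, 7.22 and 7.36 in acute Th2 and 8.18, 8.32 and 7.48 in chronic Th2 cells, all Th2 arrays above all naive arrays. It rose by 1.53 in chronic Th2 cells (SE 0.20, adjusted p = 0.00265), with the call kept in all 9 fits without 1 array, and by 0.92 in acute Th2 cells (SE 0.20, adjusted p = 0.0333). The acute call failed in 6 of 9 such fits, those without naive 2 or 3, acute Th2 1, 2 or 3, or chronic Th2 1 (adjusted p up to 0.125). Chronic minus acute Th2 was 0.61 (adjusted p = 0.322). Alox5, which encodes 5-lipoxygenase, and Ltc4s, the leukotriene C4 synthase gene, lay between 5.79 and 6.31 on all arrays, within background. Lta4h, which makes leukotriene B4, was above background at 7.84 ± 0.64 in naive, 7.64 ± 0.10 in acute and 7.31 ± 0.03 in chronic Th2 cells (SD, n = 3 each), and its differences of -0.20 and -0.53 did not pass (adjusted p = 0.831 and 0.238). Naive replicate 1, at 8.56, was the highest array of Lta4h, and without it the differences were 0.16 and -0.17.

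In the prostanoid synthesis list 0 of 8 measured genes were called in any comparison by limma, and in the arachidonate release list 0 of 6. Ptges3, whose product p23 is a chaperone partner with prostaglandin E synthase activity, was at 10.09 ± 0.77 in naive, 10.08 ± 0.17 in acute and 9.97 ± 0.19 in chronic Th2 cells (SD, n = 3 each). Naive replicate 1 had a Ptges3 level of 9.20 against 10.57 and 10.51, and without it chronic Th2 minus naive was -0.57 (adjusted p = 0.0207). Ptges, the inducible prostaglandin E synthase gene, had differences of 0.32 (adjusted p = 0.283) and 0.28 (adjusted p = 0.228), and Ptges2 of -0.031 (adjusted p = 0.962) and -0.31 (adjusted p = 0.219). Of 6 phospholipase genes, Pla2g12a had the largest acute difference, 0.47 (adjusted p = 0.402). Naive replicate 1 was its lowest array, and the difference was 0.15 without it. At an unadjusted p under 0.05, 1 gene of the prostanoid synthesis list (Ptges) passed in acute Th2 cells and 0 in chronic Th2 cells, and 0 and 2 of the arachidonate release list (Pla2g10 and Pla2g2d). Between the Th2 groups 1 gene of each list passed at an unadjusted p under 0.05 (Ptgds and Pla2g10). With array weights limma called 0 and 1 of the lists in chronic Th2 minus naive, 0 of both in acute Th2 minus naive, and 3 and 6 between the Th2 groups. Of all 19937 genes, 3246 (acute), 5101 (chronic) and 2962 (between the Th2 groups) had an unadjusted p under 0.05. In the same order 4019, 4675 and 6721 were called with array weights, and the list counts are to be read against these.

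**Figure D3:**
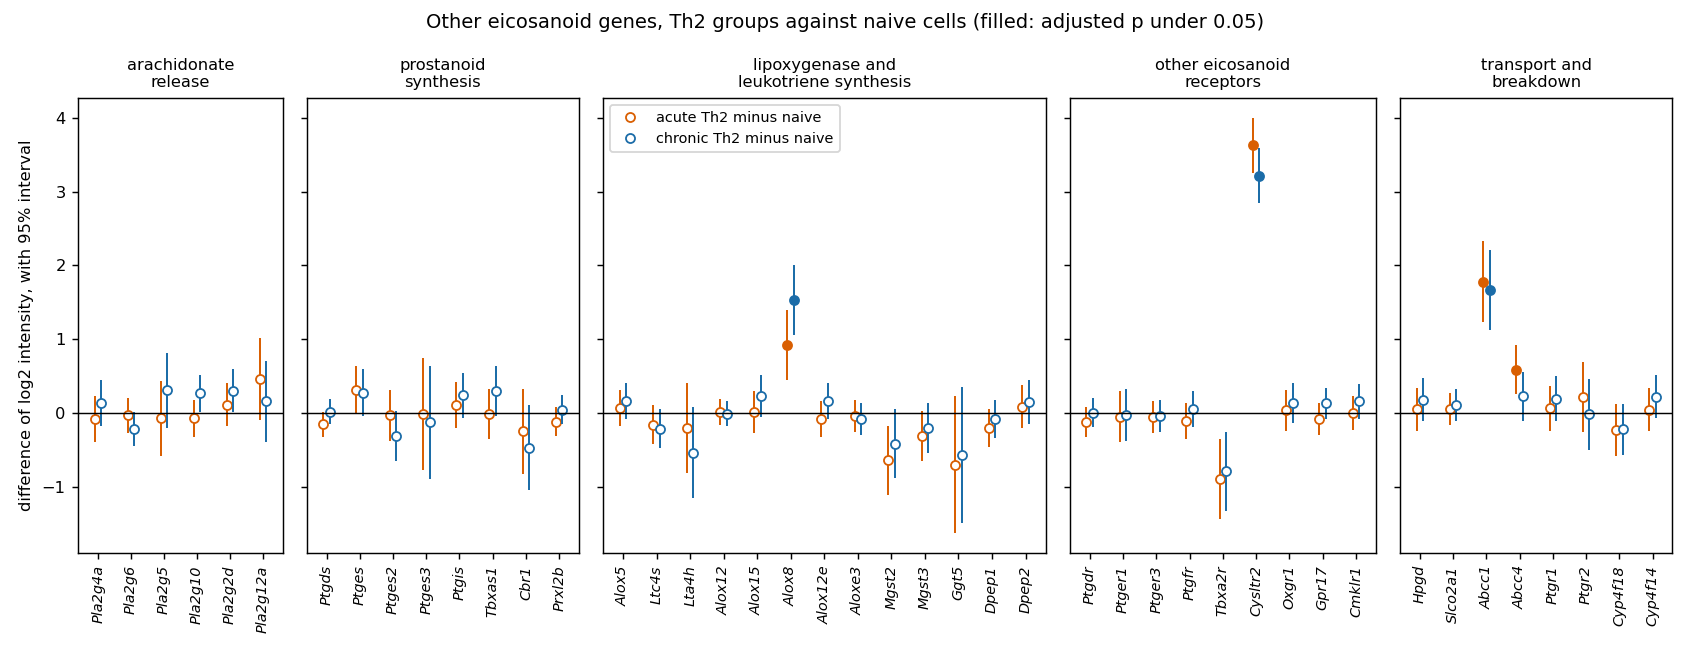
Difference of log2 intensity (y axis, with 95% intervals) of 44 other eicosanoid genes, in 5 lists, between each Th2 group and naive cells; filled points have an adjusted p under 0.05. Cysltr2 (3.63 and 3.22) and Abcc1 (1.78 and 1.67) stand out, Alox8 is called in both groups and Abcc4 in acute Th2 cells.

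Signalling genes downstream of these receptors were read from a list of 20 measured genes of cAMP and G protein signalling. In each Th2 group 1 rose and 0 fell, where 5.87% (acute) and 7.88% (chronic) of all genes were called. The median log2 differences were -0.095 in acute (-0.030 over all genes) and -0.073 in chronic Th2 cells (0.043 over all genes). The gene was Gnaq, the G protein alpha subunit that cysteinyl leukotriene receptors are known to use. Its levels ran from 6.78 to 6.97 in naive, from 7.73 to 7.99 in acute Th2 and from 7.86 to 8.06 in chronic Th2 cells, with no overlap between naive and Th2 arrays. It rose by 1.01 in acute (SE 0.10, adjusted p = 0.000480) and by 1.09 in chronic Th2 cells (SE 0.10, adjusted p = 0.000314), and both calls were kept in all 9 fits without 1 array.

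Genes with the profile most like that of each receptor were looked for among 4163 genes whose levels spanned at least 1 log2 unit. For Cysltr1 they were Perp (Pearson r over the 9 arrays 0.997), Ptpn3 (0.996) and Nek6 (0.996). For Ptger2 they were Rab11fip1 (0.994), Dusp4 (0.990) and the transporter gene Abcc1 (0.988). Ltb4r1 was most like Sv2c (0.971), S100a6 (0.968) and Cenpv (0.964), Ptgs2 most like Cep162 (0.991), Gstm1 (0.974) and Tstd3 (0.969), and Ptger4 most like St3gal1 (0.95), Tnip1 (0.923) and B4galt1 (0.916). The 9 arrays fall into 3 groups, so that these values describe group differences together with the spread within groups.

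**Figure D4:**
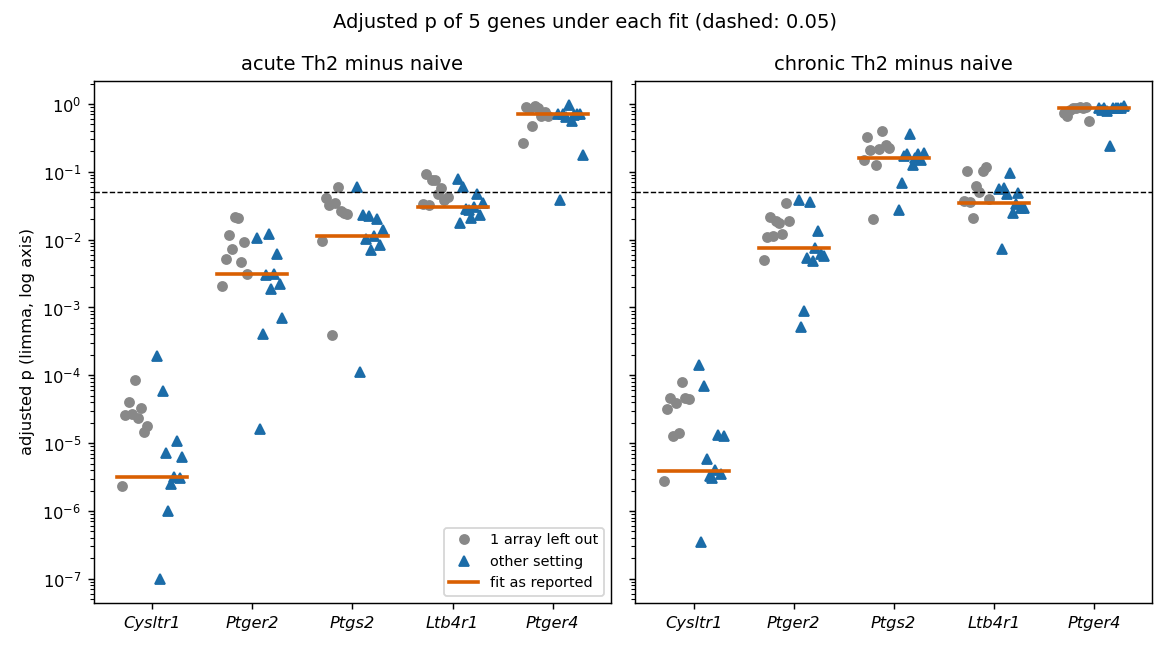
Adjusted p (y axis, log scale) of the 5 genes with a group mean above 6.68, against naive cells, for the reported fit (bar), each of the 9 fits without 1 array (circles) and the other settings (triangles), with a dashed line at 0.05. Cysltr1 and Ptger2 stay under the line in all fits shown, Ltb4r1 crosses it in both comparisons, Ptgs2 crosses it in acute and chronic Th2 cells, and Ptger4 passes in 1 setting in acute Th2 cells.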

How the data were processed

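The authors deposited log2 intensities of each probe set, made with RMA per the submitters' processing notes, which also name limma. For versions, genome build and filters the sources used here give nothing, and detection calls are not used here. Of 34760 probe sets, 21640 name 1 gene. A gene was read at the probe set with the highest mean, which gave 19937 genes. Gene names came from GEO's platform annotation. Groups and replicates came from the titles.

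The test was a two-sided moderated test (limma 3.58.1, R 4.3.3) on all 9 arrays, with group as the only term and Benjamini-Hochberg adjustment over all genes of a comparison. The fit was tested on simulated data. With 3 arrays a group, an exact permutation test cannot pass 0.05, and none is given. Precision is limited by how few arrays there are.

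The 9 genes and the lists were chosen with earlier results of these data known. All 9 genes are named. Of each list, up to 4 called genes with the largest difference were named, or up to 2 as values, with partners of the 9 genes. The 3 genes most like each of the 9 exclude predicted, olfactory and antigen receptor genes. The text prints them for the 5 genes with a group mean above background. Tbxa2r and Ptges3 without 1 array, the marker genes listed, the genes named beside an unadjusted p and the genes of the closing observations were chosen after their values were seen. Alternatives were leaving out each array, fitting 2 groups alone, array weights, a replicate block, repeated quantile normalisation, centring on olfactory receptor genes, a filter on dim genes, averaging probe sets, testing every probe set, and trend with robust eBayes. Leaving out naive 1 and chronic Th2 3 together was chosen after seeing the data.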

Additional observations from a re-analysis of the deposited data

How the results depend on the processing

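Cysltr1 and Ptger2 were called against naive cells in both comparisons under all 19 alternatives. Of 501 alternative values of the 9 genes, 445 kept direction and call, 15 lost a call, 10 gained one and 31 turned sign; the cause was not tested. Against naive cells, Ltb4r1 lost its calls in fits of both groups alone (adjusted p = 0.0778 and 0.0567), and Ptgs2 lost its acute call (0.0599) and gained a chronic one (0.0269). In those fits 762 genes were called in acute Th2 cells (2 of the 9), 686 in chronic Th2 cells (3 of the 9) and 2 between the Th2 groups, with fewer samples.

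Main counts over all genes were 1171 for acute Th2 minus naive (732 higher), 1571 for chronic Th2 minus naive (734 higher) and 6 between the Th2 groups. Array weights gave 4019 (1948 higher), 4675 (2081 higher) and 6721 (3973 higher). Of the 9 genes they called 7, 3 and 5 in the same order. The 5 called between the Th2 groups (Ptger2, Ptger4, Ptgir, Hpgds and Ptgs2) were all lower in chronic Th2 cells. Centring on olfactory receptor genes, which moved the median of all genes to -0.061, -0.37 and -0.33, gave 643, 3599 (314 higher) and 44 (0 higher). Leaving out naive 1 and chronic Th2 3 together, chosen after seeing the data, gave 2624 (1308 higher), 4665 and 1087. Between the Th2 groups, testing every probe set gave 1 and trend with robust eBayes 3. Leaving out 1 array gave 653 to 2424, 734 to 3438 and 0 to 12; without naive replicate 1 the counts were 2424, 3438 and 12.

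The titles number the replicates alike in all groups. Their deviations from the group means correlated at r from -0.085 to 0.572 between same-numbered arrays, and not every pair exceeded 0.1. As the labels name no shared animal, batch or day either, the numbers were not taken to pair the arrays. With a replicate block 1261, 1844 and 0 genes were called, and Ltb4r1 had an adjusted p of 0.0601 and 0.0574. The block changed no other call of the 9 genes.

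Signs turned as follows. For acute Th2 minus naive, Ptgdr2 was -0.064 with array weights and -0.016 without naive 1 and chronic Th2 3. For chronic Th2 minus naive, Ptger4 was 0.075 with array weights and 0.13 after quantile normalisation, Ptgir -0.015 and Hpgds -0.0021 after quantile normalisation, and Ptgdr2 -0.20, Ptgir -0.34 and Hpgds -0.31 with olfactory centring. Between the Th2 groups, array weights gave 0.19 for Cysltr1, 0.26 for Ltb4r1 and -0.00015 for Alox5ap. Quantile normalisation gave 0.081 for Cysltr1 and -0.12 for Alox5ap, olfactory centring -0.20 for Ptgdr2 and -0.37 for Alox5ap, and leaving out naive 1 and chronic Th2 3 gave 0.029 for Ltb4r1. With 1 array left out, the ranges that crossed 0 were -0.017 to 0.10 (Ptgdr2) and -0.060 to 0.00034 (Alox5ap) for acute Th2 minus naive, and -0.26 to 0.15 (Ptger4), -0.093 to 0.28 (Hpgds) and -0.057 to 0.0028 (Alox5ap) for chronic Th2 minus naive. Between the Th2 groups they were -0.22 to 0.026 (Cysltr1), -0.19 to 0.13 (Ltb4r1) and -0.015 to 0.026 (Alox5ap). Levels under 6.68 limit what can be read for Ptgdr2, Ptgir, Hpgds and Alox5ap.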

Other observations

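Some genes of receptor signalling were not called with all arrays but passed when 1 naive array was left out. They are given as values chosen after they were seen. Over all genes, 2424 (acute) and 3438 (chronic) were called without naive replicate 1, beside 1171 and 1571 with all arrays. Passing without that array thus does not set these genes apart. Without naive replicate 3 the counts over all genes were 1065 and 1379. Grk6, a kinase that switches off G protein-coupled receptors, had differences from naive cells of -1.20 in acute (limma, adjusted p = 0.181) and -1.41 in chronic Th2 cells (adjusted p = 0.0815) with all arrays. Without naive replicate 1 they were -0.60 (adjusted p = 0.00883) and -0.81 (adjusted p = 0.00152), and without naive replicate 3 the chronic one was -1.79 (adjusted p = 0.0399). In chronic Th2 cells Pde3b, a phosphodiesterase gene, differed by -0.67 with all arrays (adjusted p = 0.0714), by -0.44 without naive replicate 1 (adjusted p = 0.0384) and by -0.89 without naive replicate 3 (adjusted p = 0.0152). Adcy6, an adenylyl cyclase gene, differed there by -0.66 (adjusted p = 0.0815), -0.41 (adjusted p = 0.0334) and -0.84 (adjusted p = 0.0415) in the same order. The sizes of these differences thus moved with the naive array left out. Arrb1, an arrestin gene, had differences of 0.36 and 0.26 with all arrays (adjusted p = 0.689 and 0.607), and of 0.77 (adjusted p = 0.0101) and 0.67 (adjusted p = 0.0156) without naive replicate 1. Adcy7 had an acute difference of 0.22 with all arrays (adjusted p = 0.873) and 0.72 without naive replicate 1 (adjusted p = 0.0186). Gna13, a G protein alpha subunit gene, had a chronic difference of 0.84 with all arrays (adjusted p = 0.0642) and 0.53 without naive replicate 1 (adjusted p = 0.00926).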
